A study of Mus musculus with 5 samples.

Results

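Transcripts of 8 cathepsins (*Ctsa*, *Ctsb*, *Ctsc*, *Ctsd*, *Ctsh*, *Ctsk*, *Ctsl* and *Ctsz*) and 2 cystatins (*Cst3* and *Cstb*) were followed in SLAMseq libraries of mouse cardiac fibroblasts (CF). They were taken by name from the 20365 gene names of the SLAMseq tables, and each gene was represented by the 3′ interval with the highest mean transcript level in the labeled libraries. CF came from hearts of adult healthy male C57Bl/6J wildtype mice, were freed by perfusion with collagenase and were grown to confluency. They were then kept for 12 h with 0.1 mM 4-thiouridine (S4U) in 3 labeled libraries, or for the same 12 h without S4U in 2 unlabeled libraries. RNA of both groups was alkylated, so that the groups differ by S4U alone as far as the labels say. The labels tie no library to an animal. The study describes its labeled samples as separate CF preparations, whereas for the unlabeled libraries no source says so, and the p-values below measure the spread between these libraries.

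Cathepsins are proteases, most of which work in lysosomes, where they degrade proteins delivered by endocytosis and autophagy. Some are also released, and fibroblasts use them to take apart internalized collagen and other matrix proteins. The papain-like members have a cysteine in the active site, cathepsin D has a pair of aspartates and cathepsin A a serine. Cystatins are inhibitors that close the active site cleft of papain-like cathepsins. Cystatin C (*Cst3*) is secreted, whereas cystatin B (*Cstb*, also called stefin B) stays inside the cell. In SLAMseq, S4U is built into RNA made during labeling and is read as C in place of T after alkylation, so that the T>C conversion rate, the share of covered T positions read as C, rises with the newly made fraction of a transcript.

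The active site codons set the papain-like proteases beside the serine protease, and the inhibitory loop shows what the cystatins have in common. Each sequence is the coding strand, 5′ to 3′, read from GRCm39 with the GENCODE canonical transcripts. Capitals mark the codon of the catalytic cysteine in 6 cathepsins and of the catalytic serine in *Ctsa*. In the cystatins they mark the 5 codons of the conserved loop that begins with glutamine, has a valine in the middle and ends with glycine.
Ctsl: cagggccagtgcgggtctTGTtgggcgttt
Ctsb: cagggctcctgcggctctTGTtgggcattt
Ctsk: cagggccagtgtggttccTGTtgggctttc
Ctsh: cagggggcctgtggcagcTGCtggactttc
Ctsz: ccacagtactgtggttccTGCtgggcccac
Ctsc: caagaatcttgtggaagcTGCtactcattt
Ctsa: cttttcctgacaggagagAGCtatgctggc
Cst3: cgtaagCAGCTCGTGGCTGGAgtgaac
Cstb: aagagaCAGATAGTGGCTGGCaccaac

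The codon of the catalytic residue lies at chr13:64514889-64514891 in exon 5 of *Ctsl*, at chr14:63373166-63373168 in exon 4 of *Ctsb* and at chr3:95409908-95409910 in exon 5 of *Ctsk*. It lies at chr9:89946575-89946577 in exon 6 of *Ctsh*, at chr2:174279989-174279991 in exon 2 of *Ctsz* and at chr7:87957235-87957237 in exon 6 of *Ctsc*. For *Ctsa* it lies at chr2:164677163-164677165 in exon 7. The loop codons of *Cstb* lie at chr10:78262830-78262844 in exon 2, and those of *Cst3* are split between exons 1 and 2. *Ctsl*, *Ctsz*, *Ctsd* and *Cst3* are on the minus strand and the other members on the plus strand.

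On 1 interval per gene, libraries had from 506045 to 1843033 counted reads. The 10 transcripts held 0.459%, 0.656% and 0.637% of them in the labeled libraries (replicates 1 to 3) and 0.475% and 0.563% in the unlabeled ones. All 9 fibroblast markers, collagen chains included, had reads in every library and summed to between 31204 and 42190 CPM, where CPM is the level relative to the reads counted on 1 interval per gene. The 12 macrophage markers summed to between 131 and 194 in the labeled and between 143 and 227 in the unlabeled libraries, and 11 of them had reads in every library. The general leukocyte gene *Ptprc*, with the lowest labeled mean level of the list, had 1, 4 and 0 reads in the labeled and 5 and 3 in the unlabeled libraries. *C1qc* and *C1qa* had the highest. *C1qc* had 52, 33 and 9 reads in the labeled and 59 and 33 in the unlabeled libraries. For *C1qa* these were 29, 31 and 15, and 44 and 34. The isolation of CF described in the study's methods removes CD31+ endothelial and CD45+ immune cells with magnetic beads. Macrophages also express many cathepsins, and the part of any that were left in the levels below was not tested. Endothelial markers summed to between 142 and 249 and cardiomyocyte markers to between 1.63 and 7.03 CPM over the 5 libraries.

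Every cathepsin and cystatin transcript carried more T>C conversions with S4U than without it. For all 10, each labeled library lay above both unlabeled libraries, and all 10 passed the beta-binomial test of conversions among covered T positions, in which 94.5% of the 19240 intervals tested were raised. The members were thus called at about the rate of all transcripts. On simulated data this test called more than its nominal share of unchanged intervals, and all 10 members were also called by limma on the log odds of conversion. Their rates were low beside those of most transcripts. The median over the 10 members of the mean labeled rate was 1.53%, beside a median of 3.88% over the 2107 genes whose coverage reached 1000 T positions in each of the 5 libraries, called well covered genes here. The middle of that distribution, from the lower to the upper quartile, spanned 3.43% to 4.22%. Of the 10 members 8 were below its lower quartile, the exceptions being *Cstb* and *Ctsc*. *Ctsc* is an exception by its mean of 4.64%, which was 3.44% without labeled replicate 3, where it had 3 reads, and its rate pooled over the labeled reads was 3.0%, below the quartile. Among the 6 members that were themselves well covered, 5 were below it.

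**Figure D1:**
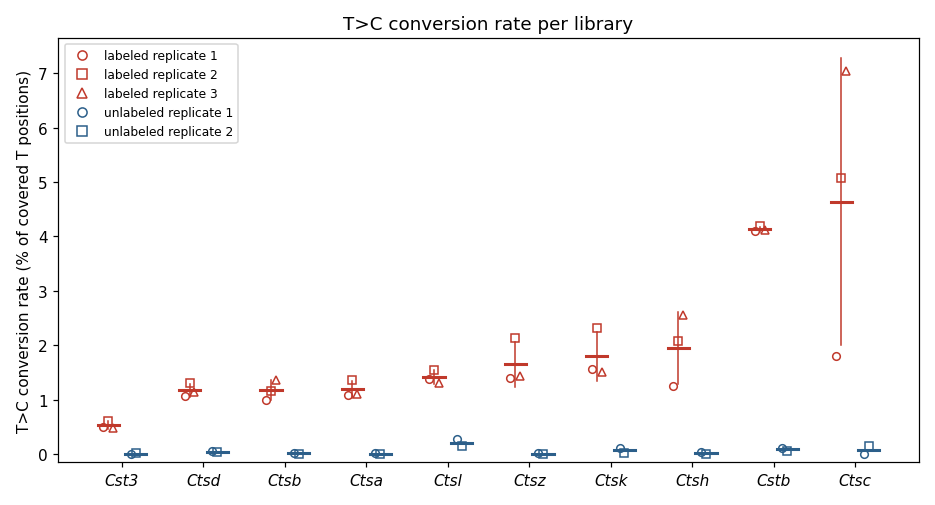
T>C conversion rate, in percent of covered T positions, of each member in each library, with members ordered by their labeled mean. Symbols are libraries, thick bars are group means and thin lines are 1 SD of the 3 labeled libraries. *Cst3* sits lowest at 0.537%, most cathepsins lie between 1 and 2.6%, *Cstb* is tight at 4.13% and *Ctsc* is spread from 1.81 to 7.04%.

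*Cstb* and *Cst3*, both inhibitors of the same proteases, were far apart in rate. The T>C conversion rate of *Cstb* was 4.10%, 4.19% and 4.11% with S4U (replicates 1 to 3), and 0.122% and 0.0581% without it. The labeled libraries were nearly equal and far above both controls, with a mean of 4.13% ± 0.0480 (SD, n = 3). For *Cst3* the rate was 0.507%, 0.617% and 0.486% with S4U, whereas it was 0.0202% in unlabeled replicate 2 and no conversion was seen in unlabeled replicate 1, whose 9858 covered T positions allow up to 0.0304%. *Cst3* had the lowest rate of the 10 members in every labeled library, and its mean of 0.537% ± 0.0700 (SD, n = 3) was above that of only 0.190% of the well covered genes. The rate of *Cstb* was above that of 69.1% of them. Within a library, the rate of *Cstb* was 8.08, 6.79 and 8.46 times that of *Cst3*. With 3 libraries a paired sign test cannot give a two-sided p below 0.25, so this difference was set only against its spread, and the ranges of both genes were far apart. Against the unlabeled libraries, the adjusted p of the beta-binomial test (Benjamini-Hochberg over all intervals) was 5.31e-06 for *Cstb* and 5.89e-05 for *Cst3*.

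The number of reads that carried a conversion gave the same order. For *Cstb* 57.5%, 61.3% and 58.0% of the reads had at least 1 conversion with S4U, and 3.18% and 1.50% without it. For *Cst3* the share was 4.61%, 7.90% and 6.20% with S4U, and 0 and 0.310% without it. The median of the well covered genes was 52.7%. Converted reads of *Cstb* held 1.81 conversions each on average and those of the well covered genes 1.58, so that *Cstb* was near the typical transcript in both measures. *Cst3* reads covered fewer T positions, 11.5, 16.3 and 15.2 per read in the labeled libraries against 25.1, 26.0 and 26.4 for *Cstb*. The share of converted reads depends on this number, and the T>C rate is taken per T position.

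The cystatin transcripts were counted on short intervals of the last exon. *Cstb* (ENSMUSG00000005054.9) was counted from 78263274 to 78263456 on chromosome 10, in exon 3 on the plus strand, a stretch of 183 bases with 63 T positions. *Cst3* (ENSMUSG00000027447.8) was counted from 148713642 to 148713879 on chromosome 2, in exon 3 on the minus strand, a stretch of 238 bases with 62 T positions. No other annotated gene overlaps either interval. All coordinates are GRCm39.

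*Cst3* was also the one of the 10 members whose level differed most in absolute terms between libraries. Since the libraries were made from the 3′ ends of transcripts, 1 fragment per transcript end was counted and levels in CPM were not divided by length. Reads that lie beyond an interval were not counted. The intervals of *Cstb*, *Ctsl* and *Ctsz* stop at 78263456, 64509704 and 174269287, whereas their canonical transcripts end at 78263991, 64507151 and 174267304. *Cst3* stood at 426, 2003 and 2136 CPM with S4U (replicates 1 to 3) and at 458 and 1295 CPM without it (replicates 1 and 2). Both libraries numbered 1 were low and the other 3 libraries were high, so that labeled and unlabeled libraries overlapped fully. The mean of the labeled libraries was 1522 ± 951 (SD, n = 3), which ranked *Cst3* 49th of all gene names. *Cstb* stood at 364, 546 and 504 with S4U and at 444 and 604 without, again lowest in the library numbered 1 of each group but over a narrower range, with a mean of 472 ± 95.3 (SD, n = 3). In bulk RNA of a culture, fewer cells with a transcript and less transcript per cell cannot be told apart.

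Other measures also moved with the library number. *Cst3* reads covered 11.5 and 11.7 T positions each in labeled and unlabeled replicate 1 and 15.2 to 16.3 in the other libraries, and *Ctsd* reads covered 12.8 and 13.3 there and 17.4 to 18.8 in the others. Over the well covered genes the median was 19.9 and 21.0 in the libraries numbered 1 and 22.4, 22.7 and 23.2 in labeled replicates 2 and 3 and unlabeled replicate 2. Smooth muscle and pericyte markers, almost all of them reads of *Acta2*, an actin of contractile cells and activated fibroblasts, summed to 546 and 360 CPM in the libraries numbered 1 and to 743 to 1628 in the others. The part of these differences in the level of *Cst3* was not tested.

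**Figure D2:**
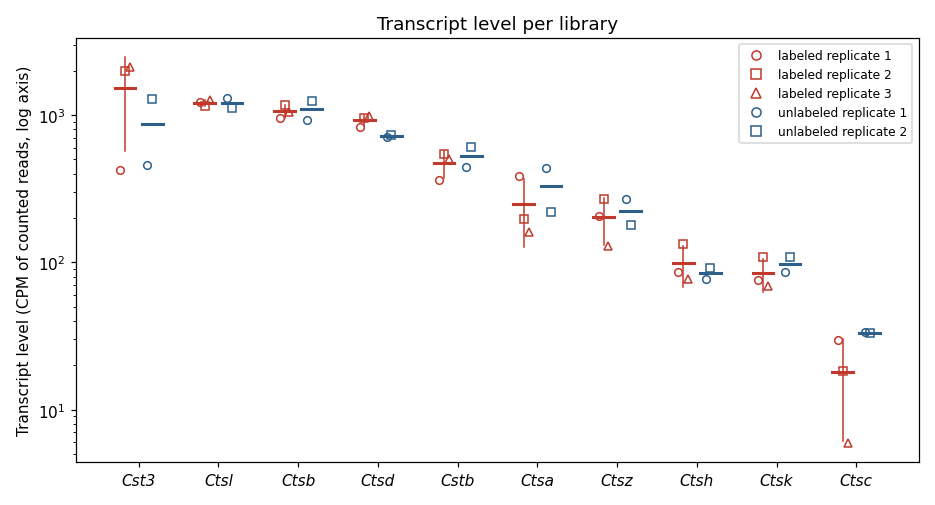
Transcript level, in CPM of the counted reads on a log axis, of each member in each library, ordered by the labeled mean. Symbols are libraries, thick bars are group means and thin lines are 1 SD of the 3 labeled libraries. *Ctsl*, *Ctsb* and *Ctsd* are tight near 1000, whereas *Cst3* is low in both libraries numbered 1 and *Ctsc* falls to 5.93 in labeled replicate 3.

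Among the cysteine proteases, *Ctsl* and *Ctsb*, broad endopeptidases of the lysosome, had the highest levels. *Ctsl* stood at 1219, 1151 and 1265 CPM with S4U and at 1305 and 1110 without it. The 5 libraries lay close together, and the labeled mean of 1211 ± 57.4 (SD, n = 3) had the smallest spread for its size of the 10 members. In the deposited CPM, whose divisor differs between libraries, *Ctsl* was at 161, 97.5 and 43.8 with S4U and at 166 and 101 without it, and its labeled SD of 58.6 was no longer the smallest for its mean. *Ctsb* stood at 955, 1174 and 1051 with S4U and at 933 and 1251 without it, a labeled mean of 1060 ± 110 (SD, n = 3). They ranked 66th and 76th of all gene names.

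The T>C conversion rate of *Ctsl* was 1.37%, 1.55% and 1.31% with S4U, a mean of 1.41% ± 0.125 (SD, n = 3), and 0.275% and 0.152% without it. The labeled libraries were close together and well above the controls, with an adjusted p of 4.69e-05 in the beta-binomial test. Its rate without S4U was the highest of the members in both unlabeled libraries. It was above that of 92.6% of the well covered genes, whose median was 0.0510%. The 181 conversions of unlabeled replicate 1 fell in 181 reads and the 47 of unlabeled replicate 2 in 47 reads, 1 in each converted read. Converted reads of the other members also held 1 conversion each in the unlabeled libraries. In the labeled libraries converted *Ctsl* reads held 1.56, 1.78 and 1.79 conversions. Rates without S4U amounted to 15.1% of the rate with S4U, and the labeled rate less the mean unlabeled rate was 1.20%. The tables hold no positions within an interval, and the origin of these conversions was not tested.

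For *Ctsb* the rate was 1.00%, 1.17% and 1.37% with S4U, a mean of 1.18% ± 0.185 (SD, n = 3). Without S4U it was 0.0240% and 0.00807%, from 7 and 2 conversions. Both unlabeled libraries were near 0 and far below the labeled ones (beta-binomial adjusted p = 2.91e-05). *Ctsl* and *Ctsb* were above only 3.80% and 2.80% of the well covered genes in rate, although both were among the 100 most abundant transcripts.

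*Ctsl* (ENSMUSG00000021477.11) was counted on chromosome 13 from 64509704 to 64511911, on the minus strand in exon 8, the last. *Ctsb* (ENSMUSG00000021939.10) was counted on chromosome 14 from 63379779 to 63383372, on the plus strand in exon 10, the last. A lncRNA lies on the other strand of the *Ctsl* interval and *Fdft1* on that of the *Ctsb* interval. The library kit keeps the strand, but the sources used here do not say whether the counting used it. Each gene has a shorter interval nested in the one used. The 302 bases of the nested *Ctsl* interval held 99.4% of its labeled reads and gave a rate of 1.41%, and the 827 bases of the nested *Ctsb* interval held 88.3% and gave 1.11% ± 0.269 (SD, n = 3).

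*Ctsz*, *Ctsh* and *Ctsk* were less abundant. *Ctsz*, which encodes cathepsin X, a carboxypeptidase, stood at 207, 269 and 128 CPM with S4U and at 267 and 179 without it. *Ctsh*, which encodes an aminopeptidase, stood at 85.7, 134 and 77.1 with S4U and at 77.6 and 91.4 without it. *Ctsk*, a collagen-degrading protease best known from osteoclasts, stood at 75.5, 109 and 69.2 with S4U and at 86.3 and 109 without it. For all 3 genes labeled replicate 2 was the highest and labeled replicate 3 the lowest of the labeled libraries, and labeled and unlabeled libraries overlapped.

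The mean rates of these 3 genes were above those of *Ctsl* and *Ctsb*, but their wider spread overlapped that of *Ctsl*. For *Ctsz* the rate was 1.40%, 2.13% and 1.43% with S4U, 0.0172% in unlabeled replicate 1 and without a conversion in unlabeled replicate 2, which allows up to 0.120%. For *Ctsh* it was 1.24%, 2.07% and 2.55%, with 0.0407% and none, which allows up to 0.149%, in the controls. For *Ctsk* it was 1.56%, 2.31% and 1.52%, with 0.108% and 0.0315% in the controls. The labeled libraries of each gene were above both controls, and their means were 1.65% ± 0.413 for *Ctsz*, 1.96% ± 0.661 for *Ctsh* and 1.80% ± 0.447 for *Ctsk* (SD, n = 3 each). The beta-binomial adjusted p was 0.000155, 0.000440 and 0.000208. In labeled replicate 3 these rates rested on only 910 covered T positions for *Ctsz*, 745 for *Ctsh* and 989 for *Ctsk*.

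*Ctsz* (ENSMUSG00000016256.12) was counted on chromosome 2 from 174269287 to 174269664, *Ctsh* (ENSMUSG00000032359.16) on chromosome 9 from 89957811 to 89958148 and *Ctsk* (ENSMUSG00000028111.6) on chromosome 3 from 95416234 to 95416698. Each interval lies within the last exon, and that of *Ctsz* has *Nelfcd* on its other strand.

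*Ctsc*, which encodes the dipeptidyl peptidase that activates granule proteases of immune cells, was the rarest member. It had 47, 22 and 3 reads with S4U and 62 and 33 without it, or 29.8, 18.4 and 5.93 CPM against 33.6 and 33.1. All labeled libraries lay below both controls. Its T>C conversion rate was 1.81%, 5.07% and 7.04%, with 95% Wilson intervals of 1.15 to 2.84%, 3.37 to 7.56% and 3.05 to 15.4%, and in the controls no conversion was seen in one library, which allows up to 0.230%, and 1 conversion, or 0.147%, in the other. The mean was 4.64% ± 2.64 (SD, n = 3), but with the 45 conversions and 1499 covered T positions of the labeled libraries pooled the rate was 3.0% (2.25 to 3.99%). Its place beside *Cstb*, *Ctsh*, *Ctsk* and *Ctsz* was therefore not resolved at this depth. Each labeled library was above all those of *Ctsl*, *Ctsb*, *Ctsd*, *Ctsa* and *Cst3*. In labeled replicate 1, however, the interval of *Ctsc* held the mean rates of *Ctsl*, *Ctsb*, *Ctsd* and *Ctsa*. The other labeled libraries rested on 22 and 3 reads. *Ctsc* differed from the controls (beta-binomial adjusted p = 0.00456). These intervals and limits cover counting error only. The interval (ENSMUSG00000030560.19, chromosome 7, 87959111 to 87965069) begins in exon 7, the last, and runs past its annotated end at 87960096 into a region with a lncRNA on the same strand. Its first 973 bases, counted as an interval of their own, held 98.6% of the reads.

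*Ctsd* and *Ctsa*, with other active sites, had rates near those of *Ctsl* and *Ctsb*. *Ctsd*, the aspartic protease of lysosomes, stood at 836, 953 and 978 CPM with S4U and at 711 and 733 without it. All labeled libraries were above both controls. Its rate was 1.07%, 1.31% and 1.14% with S4U and 0.0518% and 0.0473% without it, a labeled mean of 1.17% ± 0.121 (SD, n = 3), with a beta-binomial adjusted p of 1.50e-05. *Ctsd* (ENSMUSG00000007891.18) was counted on chromosome 7 from 141929647 to 141930307, in exon 9 and 1 base past its end on the minus strand, where a second protein-coding model, *Gm49369*, overlaps on the same strand, so that the reads may be shared between them.

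*Ctsa* encodes the serine carboxypeptidase that also protects the lysosomal enzymes of *Neu1* and *Glb1*. It stood at 387, 198 and 160 CPM with S4U and at 436 and 221 without it, high in both libraries numbered 1 and low in the other 3. Its rate varied less, at 1.09%, 1.36% and 1.11% with S4U, 0.0167% in unlabeled replicate 1 and none in unlabeled replicate 2, which allows up to 0.0931%. The labeled mean was 1.19% ± 0.151 (SD, n = 3; beta-binomial across all intervals, adjusted p = 3.29e-05). *Ctsd* was above 2.75% and *Ctsa* above 2.85% of the well covered genes in rate. *Ctsa* (ENSMUSG00000017760.18) was counted on chromosome 2 from 164681155 to 164682952 in exon 16, the last, with *Pltp* on the other strand.

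**Figure D3:**
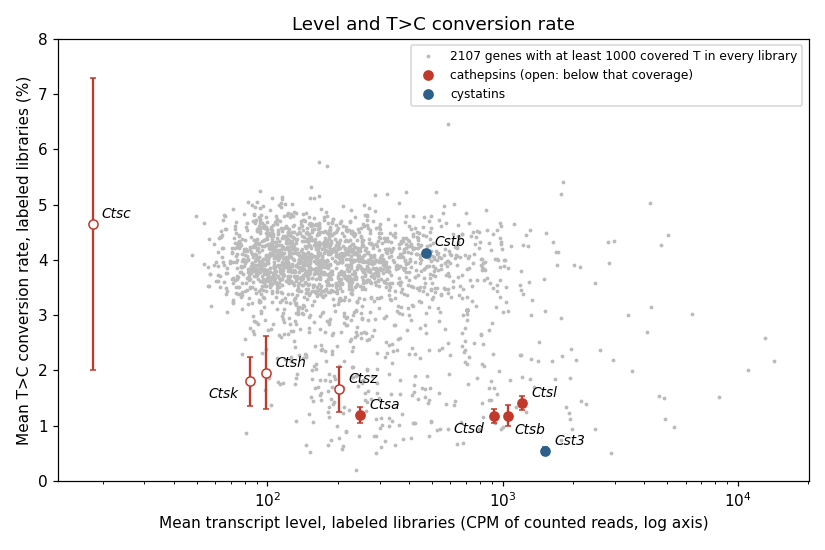
Mean T>C conversion rate (percent) against mean transcript level (CPM of the counted reads, log axis) in the 3 labeled libraries. Grey points are the 2107 well covered genes and large points the members with 1 SD of the rate, open where coverage was below 1000 T positions in any library. *Cstb* lies within the main cloud near 4%, while *Ctsl*, *Ctsb*, *Ctsd* and *Ctsa* lie below it between 1 and 1.6% and *Cst3* lower still.

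In the order of mean rates, *Ctsc*, *Cstb*, *Ctsh*, *Ctsk*, *Ctsz*, *Ctsl*, *Ctsa*, *Ctsb*, *Ctsd* and *Cst3*, only *Cstb* and *Ctsh* and, at the other end, *Ctsd* and *Cst3* were neighbors whose labeled libraries did not overlap. From *Ctsa* to *Ctsd* the means differed by less than the SD, at 1.19%, 1.18% and 1.17%. Of the 45 pairs of members, 27 had ranges that did not overlap in rate and 37 kept 1 order in every labeled library. In the order of mean levels, *Cst3*, *Ctsl*, *Ctsb*, *Ctsd*, *Cstb*, *Ctsa*, *Ctsz*, *Ctsh*, *Ctsk* and *Ctsc*, only *Ctsd* and *Cstb*, and *Ctsk* and *Ctsc*, were such neighbors.

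Reads of the members did not differ detectably between labeled and unlabeled CF. All 10 were tested and 0 were called by edgeR's quasi-likelihood test, as were 0 of the 9807 genes tested (0%). At an unadjusted p below 0.05 there were 585 genes and 0 members. DESeq2 called 20 genes, none of them a member. With the replicate number as a block, edgeR called 1146 genes (528 higher, 618 lower) on only 1 residual degree of freedom, again with 0 members among them, so that the count over all genes depends on the fit. The log2 fold change was above 0 for 5 members and below 0 for 5, with a median of -0.02 beside 0.02 over all genes. It was 0.86 for *Cst3* (standard error 0.75), the widest error of the set, and moved from 0.27 without unlabeled replicate 1 to 1.87 without unlabeled replicate 2. For *Ctsd* it was 0.43 (standard error 0.24, edgeR adjusted p = 0.955) and for *Ctsc* -0.71 (standard error 0.51, edgeR adjusted p = 0.996). The value of *Ctsc* was -1.22 without labeled replicate 1 and -0.40 without labeled replicate 3. *Ctsd* was the 1 member with every labeled library above both controls, as were 8.2% of all genes tested, and *Ctsc* the 1 member with every labeled library below them, as were 13.1%. The other 8 overlapped. *Ctsl* and *Ctsb* were at 0.09 and 0.03, with standard errors of 0.23 and 0.27. The signs of *Ctsb*, *Ctsz*, *Ctsk*, *Ctsa* and *Cstb* turned when single libraries were left out.

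**Figure D4:**
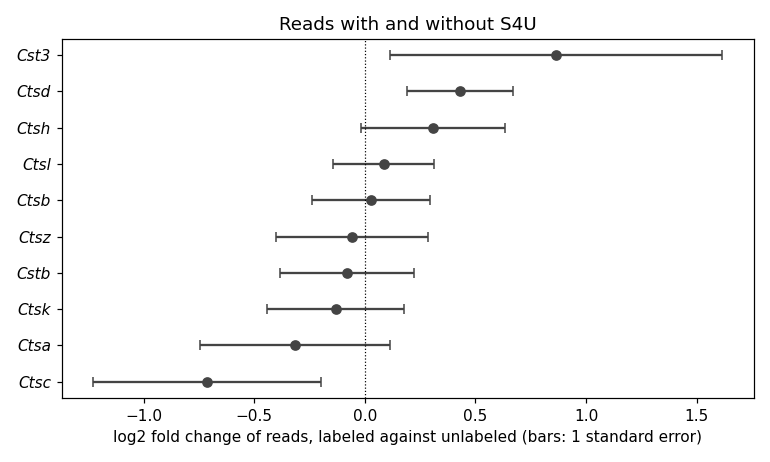
Log2 fold change of reads, labeled against unlabeled libraries, for each member, from edgeR's quasi-likelihood fit. Bars are 1 standard error, derived from the F statistic of the test. The values run from -0.71 for *Ctsc* to 0.86 for *Cst3*, and none was called.

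Transcripts of the proteases were set against those of their inhibitors within each library, a ratio that does not depend on scaling. It is a ratio of reads and does not measure the balance of the proteins. Reads of the 6 cysteine cathepsins amounted to 3.25, 1.12 and 0.984 per read of the 2 cystatins with S4U and to 3.0 and 1.46 without it. The libraries numbered 1 were high in both groups, and the groups overlapped. The log2 ratio was 0.61 ± 0.95 (SD) in the labeled and 1.07 on average in the unlabeled libraries, a difference of -0.45 (exact permutation test, two-sided, p = 0.6, where the smallest possible is 0.2). This difference followed *Cst3*. Counted against *Cstb* alone, the ratio was 7.06, 5.23 and 5.15 with S4U and 6.09 and 4.59 without it, and the difference turned to 0.12. Counted against both cystatins but without unlabeled replicate 1, it turned to 0.068.

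The letters ATTTA, the core of elements that mark many short-lived mRNAs, were searched on the transcript strand of each interval, overlapping matches included. None was found in 6 of the 10 members, *Ctsz*, *Ctsh*, *Ctsd*, *Ctsa*, *Cst3* and *Cstb*. *Ctsl* had 1, *Ctsb* 2, *Ctsk* 3 and *Ctsc* 11. In the nested intervals that held most of the reads, *Ctsl* and *Ctsa* had 0, *Ctsb* 1 and *Ctsc* 3. The other sites of *Ctsc* lie beyond its first 973 bases. Longer intervals hold the motif more often. Of the 1320 intervals within 10% of the length of *Ctsa* 88.9% held it. The share was 59.3% for *Ctsd*, 41.9% for *Ctsz*, 41.5% for *Ctsh*, 31.7% for *Cst3* and 24.0% for *Cstb*. The nested *Ctsa* interval, with 98.0% of the labeled reads, is 350 bases long, between *Ctsh* (338) and *Ctsz* (378) in length. Intervals of like length held a median of 3 sites for *Ctsl*, 6 for *Ctsb*, 0 for *Ctsk* and 11 for *Ctsc*. Intervals such as those of *Cstb*, *Ctsl* and *Ctsz* stop before the annotated transcript end, and bases beyond an interval were not searched. Whether the motif bears on the rates was not tested.

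Other genes of the same pathway were taken from lists of other cathepsins, other cystatins and processing and sorting partners. Of 14 other cathepsins, 10 had no read in any library. *Ctsf* at 43.1 ± 26.2, *Ctss* at 38.6 ± 16.4 and *Ctso* at 34.4 ± 5.39 CPM (SD, n = 3) had the highest levels, and all 3 were called raised in T>C rate. The rate was 3.09% ± 0.548 for *Ctso*, 0.949% ± 0.583 for *Ctss* and 0.498% ± 0.501 for *Ctsf* (SD, n = 3 each), and *Ctsf* had no conversion in labeled replicate 1, which allows up to 1.03%, or in the controls, which allow up to 0.622% and 0.417%. Of 20 other cystatins, 19 were in the tables and 14 of these had no read. *Ahsg*, a serum protein of the cystatin family, had 17.7 ± 8.86 CPM, followed by *Fetub* at 1.15 ± 0.723 and *Kng1* at 1.08 ± 1.00 (SD, n = 3 each). Among these cystatins 2 could be tested for conversions and 1 was called raised. This was *Ahsg*, at a rate of 0.771% ± 0.777 (SD, n = 3; beta-binomial adjusted p = 0.00748), whereas *Fetub* was not called. The *Ahsg* rate rested on 5 conversions in 1113 covered T positions of the labeled libraries. At 0.277%, 0.369% and 1.67%, each labeled rate was below its limit of 3 conversions, 0.416%, 1.11% and 2.5%. The controls had no conversion, which allows up to 0.312% and 0.311%. 
Of 18 partners, 17 could be tested for conversions and 16 were raised. *Sort1*, a sorting receptor with 2 to 13 reads per library, was not called (beta-binomial adjusted p = 0.730 over all intervals). Well covered were 8 partners, with a median rate of 2.06%, and 7 of them were below the median of all well covered genes. *Grn*, which encodes progranulin, a lysosomal protein precursor, had the lowest rate at 0.687% ± 0.0994 (SD, n = 3). *M6pr*, a receptor that carries newly made enzymes to lysosomes, had the highest at 4.55% ± 0.332 (SD, n = 3). The most abundant partners were the lysosomal membrane genes *Lamp2*, *Lamp1* and *Scarb2*, at 948, 901 and 705 CPM and with rates of 1.58%, 1.17% and 2.91%. Reads of 16 partners were tested between labeled and unlabeled libraries, and edgeR called 0.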

How the data were processed

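SLAMseq was performed on CF with S4U (3 libraries) and without S4U (2 libraries), grouped by the labels. The authors extracted UMIs, mapped reads with SLAM-DUNK 0.4.3 to the mm39 build and dropped duplicates by UMI. They deposited read counts per interval, counts of reads with a conversion, counts of covered T positions and conversions, none of them normalized. The deposited conversion rate is a fraction, shown here in percent. The deposited CPM divide by a number of reads per library that exceeds the counted reads, so CPM were recomputed from the reads counted on 1 interval per gene. The origin of the intervals is not given in the sources used here. Columns for the bounds of the rate and for multimapping hold single constants and were not used.

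Repeated rows (97442 per table, 40428 distinct intervals) were counted a single time. In T content, 40380 of 40380 intervals matched GRCm39, and positions are counted from 1. Conversions among covered T positions were compared by a two-sided beta-binomial likelihood-ratio test with a shared overdispersion (chi-square distribution) on the intervals where each library covered a T, and reads with edgeR's quasi-likelihood test (TMM, filterByExpr), both with Benjamini-Hochberg adjustment at 0.05. The edgeR fit reports no standard error, so that of a log2 fold change was taken as its absolute value over the square root of F. Both tests, DESeq2 and limma were tested on simulated data. There the beta-binomial test, at an unadjusted p below 0.05, called more than 5% of the unchanged intervals. A rate with no conversion is given with the limit of 3 conversions. Software was Python 3.11.15 (scipy 1.17.1, numpy 2.4.6, numba 0.67.0, pandas 2.3.3, matplotlib 3.10.9) and R 4.3.3 (DESeq2 1.42.0, limma 3.58.1, edgeR 4.0.16).

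Every member was named. A rule was followed for the lists of other cathepsins, other cystatins and partners. It took the well covered genes with the highest and lowest rate and the 3 with the highest level. The marker lists were given as sums. *Ptprc*, *C1qc*, *C1qa*, *Acta2*, *Sort1*, *Neu1*, *Glb1* and the genes that overlap an interval were named outside this rule, after their values or positions were seen. The members and lists were chosen with earlier results of these data known. Alternatives were a coverage minimum of 1000 T positions, other intervals, DESeq2, limma on log odds (pseudocount 0.5), other size factors and filters, a replicate block and each library left out. The sequence around the active site of 1 member is not reported here.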

Additional observations from a re-analysis of the deposited data

How the results depend on the processing

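With at least 1000 covered T positions required in every library, 6 members had a raised T>C rate in place of 10, because only 6 were tested, and their median rate was 1.18% in place of 1.53%. All 10 were raised under every other alternative, with adjusted p up to 0.0286 (*Ctsc*), and leaving out each library in turn gave 10 to 10. The median member rate was 1.38 to 1.61% with a labeled library left out, and 20.4% as the share of reads with a conversion, a different unit. The summed level was 5839 CPM of the counted reads, 461 in the deposited CPM, which divide by more reads, 5480 to 6465 with a labeled library left out, and 4317 without *Cst3*, an alternative chosen after seeing the data, as were the median rates without *Ctsc* or *Cstb*. Genes with changed reads rose from 0 to 20 with DESeq2 (the cause was not tested), and stayed 0 to 0 with each library left out. Both groups share 2 replicate numbers, which no source ties to a shared preparation. The cells without S4U were incubated in parallel, and whether the numbers pair the libraries is not known. With the replicate block, edgeR called 1146 genes (528 higher, 618 lower, 0 members) with 1 residual degree of freedom, and the deviations correlated at 0.784 between libraries numbered 1, 0.638 between those numbered 2 and 0.482 between labeled replicate 3 and unlabeled replicate 2, which share no number. With 2 unlabeled libraries the deviations of one mirror those of the other. The block moved *Cst3* from 0.86 to 0.33 and *Ctsc* from -0.71 to -0.37. The log2 ratio of cysteine cathepsins to cystatins, -0.45, became -0.13 with the paired numbers, 0.12 without *Cst3* and 0.068 without unlabeled replicate 1, the highest of a leave-one-out range from -1.0. Fold changes of 5 members turned, none of them called. With each library left out, *Ctsb* ranged from -0.21 (without unlabeled replicate 1) to 0.31, *Ctsz* from -0.32 to 0.21 (without unlabeled replicate 1), *Ctsk* from -0.35 to 0.10 (without unlabeled replicate 2), *Ctsa* from -0.77 to 0.20 (without unlabeled replicate 1) and *Cstb* from -0.33 to 0.21 (without unlabeled replicate 2). *Ctsz* was at 0.13 with the replicate block. The causes were not tested. Depth limits *Ctsc* most, with 3 reads in labeled replicate 3.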
